A study of Homo sapiens with 12 samples.

Results

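Cystatins, SPINK1 and SLPI are small protease inhibitors, most of them secreted. The 10 genes CST1, CST2, CST3, CST4, CST5, CST6, CSTA, CSTB, SPINK1 and SLPI were followed through gastric cancer cells made to overexpress ESRRG, the gamma member of the estrogen-related receptors, which are orphan nuclear receptors. Every probe that the platform annotation gives to one of these genes was taken, which made 11 probes of 47323 on the array and 10 genes of 20046. CST4 had a pair of probes and each of the other genes had 1. The genes were selected on their measured log2 differences between ESRRG OE (overexpression) and control samples on these same arrays, so their values are described here and not tested.

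The 12 arrays held 3 samples in each of 4 groups, given by the labels as AGS ESRRG OE, AGS control, MKN45 ESRRG OE and MKN45 control. AGS and MKN45 are established human gastric cancer cell lines. The cells received an ESRRG or a control lentiviral vector, the full-length ESRRG cDNA having been cloned behind an EF1 promoter, and RNA was taken after 3 days of overexpression. Nothing in the labels tells separate cultures from repeats of 1 culture, so the spread within a group, and any p-value resting on it, may be technical.

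Type 2 cystatins (CST1 to CST6) are secreted proteins that block papain-like cysteine proteases such as the lysosomal cathepsins, and several of them are known from saliva, tears and other glandular fluids. The stefins CSTA and CSTB do the same inside the cell. SPINK1 is the trypsin inhibitor of pancreatic and gastric secretions, and SLPI, found in mucus, inhibits the elastase and cathepsin G of neutrophils.

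Measured facts about the labels come before the results. The arrays labelled AGS and MKN45 were nearly alike: among 21080 detected probes, 91 (0.432%) differed by more than 2-fold between the mean of the MKN45 controls and that of the AGS controls, and 0 by more than 8-fold. Pearson's r across these probes lay between 0.983 and 0.987 for pairs of 1 MKN45 and 1 AGS control array, against 0.992 to 0.996 within a group, and between 0.957 and 0.974 for pairs of 1 ESRRG OE and 1 control array of the same label. MET, known to be amplified in MKN45 cells, was at a mean log2 value of 9.24 in MKN45 controls and 9.06 in AGS controls. It was named after its value was seen. AGS and MKN45 below are the labels' names. Whether the arrays came from 2 different lines cannot be told from these values, and a change seen under both labels is not counted as seen in independent lines. The 1 ESRRG probe that was detected on any array was at 6.90 in AGS ESRRG OE and 7.27 in AGS control samples, and at 6.94 in MKN45 ESRRG OE and 6.91 in MKN45 control samples. Its position in the transcript relative to the introduced cDNA was not available here, so it does not check the labels. All 6 epithelial markers were detected on all arrays. Of 4 leukocyte markers, PTPRC, CD3E and MPO were detected on 0 arrays, while the 3 probes of CD68, a lysosomal protein that is also a macrophage marker, were higher in ESRRG OE samples by 0.36 to 1.44 log2 units. The fibroblast and endothelial markers were at or near the detection limit. The part of any other cell type in the values of the protease inhibitors was not tested.

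RefSeq promoter sequence was at hand for 3 of the 10 genes. They are shown because CST5 and SPINK1 were among the genes with the largest differences between ESRRG OE and control samples, and CST3, a neighbour of CST5 on chromosome 20, was among those with the smallest. The CST3 probe was near the top of the array range in all groups, so a larger rise may not be measured. Each run gives the 250 bases before the gene's start, 5′ to 3′ on the gene's strand (minus in all 3), in the GRCh38.p14 build, at chr20:23879749-23879998 for CST5, chr5:147831672-147831921 for SPINK1 and chr20:23637956-23638205 for CST3.
CST5: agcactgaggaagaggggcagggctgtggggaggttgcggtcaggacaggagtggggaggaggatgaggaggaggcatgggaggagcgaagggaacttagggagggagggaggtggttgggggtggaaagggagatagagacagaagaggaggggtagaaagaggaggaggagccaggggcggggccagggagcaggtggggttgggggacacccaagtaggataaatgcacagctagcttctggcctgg
SPINK1: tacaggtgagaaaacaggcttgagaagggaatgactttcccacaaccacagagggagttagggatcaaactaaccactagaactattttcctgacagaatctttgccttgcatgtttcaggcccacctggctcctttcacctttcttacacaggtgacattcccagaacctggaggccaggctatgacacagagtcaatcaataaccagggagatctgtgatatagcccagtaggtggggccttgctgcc
CST3: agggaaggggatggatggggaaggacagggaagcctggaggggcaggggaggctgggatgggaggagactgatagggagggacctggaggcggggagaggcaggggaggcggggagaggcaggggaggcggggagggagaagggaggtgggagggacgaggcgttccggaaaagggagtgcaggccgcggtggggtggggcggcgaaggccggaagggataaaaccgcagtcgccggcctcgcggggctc
These windows were searched on both strands for the estrogen-related receptor element TNAAGGTCA and for the shorter nuclear receptor half-site AGGTCA, which lies within it. Neither was found in any of the 3 windows, so no letters are in capitals. Of 35116 promoter windows of this length, 0.854% held the element and 12.1% the half-site. The absence of these letters from the windows says nothing about sites elsewhere.

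CST4, CST2 and CST5, secreted cystatins of the salivary group, and SPINK1 were far higher with ESRRG OE than in controls under both labels. CST1, of the same group, was higher by a smaller amount, most of it under the MKN45 label. CST3, the widely expressed cystatin C, SLPI and CSTB differed by small amounts. CST3 was higher in MKN45 ESRRG OE samples and nearly level in AGS. CSTB was lower in ESRRG OE samples under both labels, and SLPI differed in opposite directions in AGS and MKN45. CST6 and CSTA were not detected. All values are quantile-normalized log2 intensities, on which 1 unit is a 2-fold difference. Each probe has its own brightness, so levels are compared between arrays and not between probes. A probe counts as detected where its detection p-value, taken against the negative controls of the array, is under 0.05. The lowest value of a detected probe lay between 6.96 and 7.01 over the arrays, the 99th percentile of an array was 12.79 and the brightest probe was at 13.95.

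**Figure D1:**
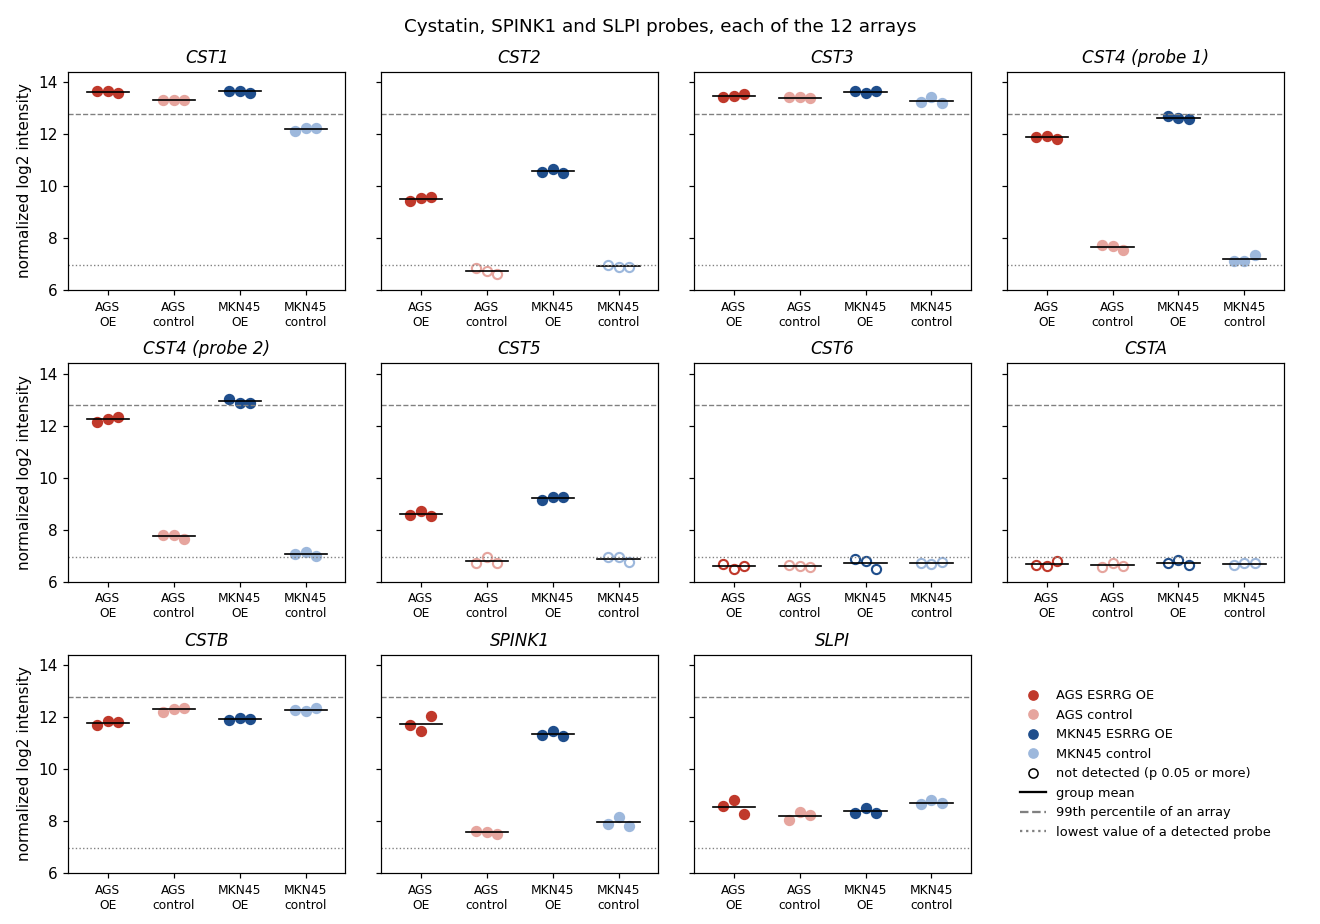
Normalized log2 intensity (y axis) of the 11 probes on each of the 12 arrays, by labelled line and vector (x axis), with group means as bars; open circles are arrays on which the probe was not detected, the dashed line is the 99th percentile of an array and the dotted line the lowest value of a detected probe. CST4, CST2, CST5 and SPINK1 were separated between ESRRG OE and control samples by 1.56 log2 units or more, while CST6 and CSTA lay at the background in all groups.

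CST4 encodes cystatin S. Its first probe (ILMN_1752452) was at 11.91, 11.92 and 11.80 in AGS ESRRG OE samples and at 7.74, 7.70 and 7.55 in AGS controls. In MKN45 it was at 12.70, 12.64 and 12.58 in ESRRG OE samples and at 7.11, 7.11 and 7.35 in controls. The control values were just above the background, and the groups were separated by 4.06 log2 units in AGS and 5.23 in MKN45. The second probe (ILMN_2185911) was at 12.15, 12.27 and 12.33 in AGS ESRRG OE samples and at 7.79, 7.79 and 7.65 in AGS controls. In MKN45 it was at 13.04, 12.88 and 12.88 in ESRRG OE samples and at 7.05, 7.13 and 7.00 in controls. Both probes gave the same order of groups, with MKN45 ESRRG OE highest, then AGS ESRRG OE, AGS control and MKN45 control, and no pair of neighbours in that order overlapped. The difference between ESRRG OE and control was 4.21 ± 0.09 log2 units (SE of the fit) by the first probe and 4.51 ± 0.09 by the second in AGS, or 18.5-fold and 22.8-fold. In MKN45 it was 5.45 ± 0.09 and 5.87 ± 0.08, or 43.8-fold and 58.6-fold. On the deposited intensity scale, before normalization, the second probe read between 3738 and 5104 in AGS ESRRG OE samples and between 184 and 193 in AGS controls. In MKN45 the same probe read 9097 to 9399 in ESRRG OE samples and 105 to 164 in controls. In MKN45 ESRRG OE samples this probe lay just past the 99th percentile of the array (lowest 12.88), and the first probe just short of it (highest 12.70). With background correction (neqc), which stretches values near the background, the differences became 5.06 and 5.31 in AGS and 6.91 and 7.56 in MKN45.

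CST2, which encodes cystatin SA, was not detected in the controls of either label. It was at 9.42, 9.56 and 9.59 in AGS ESRRG OE samples and at 6.86, 6.75 and 6.63 in AGS controls. It was at 10.56, 10.67 and 10.50 in MKN45 ESRRG OE samples and at 6.97, 6.90 and 6.89 in MKN45 controls. Every ESRRG OE sample was above every control, and the MKN45 ESRRG OE samples were above the AGS ones. Where a control group was not detected its level has only an upper bound, so the fold is given as a lower bound: the mean of the ESRRG OE samples against, for each control array, whichever was higher, the value of CST2 there or the lowest among detected probes. CST2 was at least 5.72-fold higher in AGS ESRRG OE than in AGS control samples and at least 12.1-fold higher in MKN45 ESRRG OE than in MKN45 control samples. The measured log2 differences were 2.78 ± 0.09 and 3.66 ± 0.08. The detection p-values of the MKN45 controls began at 0.052, just outside the limit, while those of the second CST4 probe in the same samples, between 0.014 and 0.044, were just inside it. With background correction the CST2 differences became 4.70 in AGS and 5.53 in MKN45.

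CST5 encodes cystatin D, a salivary cystatin. It was at 8.57, 8.70 and 8.51 in AGS ESRRG OE samples and at 6.71, 6.95 and 6.72 in AGS controls. It was at 9.12, 9.24 and 9.25 in MKN45 ESRRG OE samples and at 6.95, 6.94 and 6.74 in MKN45 controls. Both control groups were undetected and overlapped each other, and the ESRRG OE samples lay at least 1.56 log2 units above them. The differences were 1.80 ± 0.09 log2 units in AGS and 2.33 ± 0.09 in MKN45, and the folds at least 3.01 and at least 4.69. With background correction the differences became 3.48 and 4.08.

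CST1, which encodes cystatin SN, was near the top of the range in 3 of the 4 groups. It was at 13.65, 13.67 and 13.60 in AGS ESRRG OE samples and at 13.34, 13.33 and 13.33 in AGS controls. It was at 13.68, 13.66 and 13.60 in MKN45 ESRRG OE samples and at 12.11, 12.24 and 12.24 in MKN45 controls. The ESRRG OE samples of both labels overlapped, about 0.30 log2 units under the brightest probe of the array, whereas the controls did not, with a mean of MKN45 minus AGS controls of -1.14 log2 units. The difference between ESRRG OE and control was 0.31 ± 0.08 log2 units in AGS, or 1.24-fold, and 1.45 ± 0.08 in MKN45, or 2.74-fold. All arrays except the MKN45 controls were past the 99th percentile for CST1. How far the scanner's range limits these values was not tested. CST1, CST2 and CST4 are known to be close in sequence, and since no probe sequence was used in this work, signal from one of these transcripts at the probe of another was not tested.

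CST3 was near the top of the range in all 4 groups, and how far the scanner's range limits its values was not tested. It was at 13.44, 13.47 and 13.55 in AGS ESRRG OE samples and at 13.42, 13.43 and 13.39 in AGS controls. It was at 13.67, 13.59 and 13.66 in MKN45 ESRRG OE samples and at 13.25, 13.42 and 13.18 in MKN45 controls. The difference was 0.07 ± 0.08 log2 units in AGS, where the groups were separated by 0.01, and 0.36 ± 0.08 in MKN45. With scaling to one median instead, the AGS difference turned to -0.09. CST6, which encodes cystatin E/M, was not detected on any array. Its values were 6.48 to 6.69 in AGS ESRRG OE samples and 6.56 to 6.65 in AGS controls, and 6.49 to 6.87 in MKN45 ESRRG OE samples and 6.66 to 6.75 in MKN45 controls.

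Of the stefins only CSTB was detected. CSTA was not detected on any array, with values from 6.60 to 6.79 in AGS ESRRG OE samples and from 6.58 to 6.71 in AGS controls, and from 6.64 to 6.83 in MKN45 ESRRG OE samples and from 6.62 to 6.72 in MKN45 controls. CSTB was detected on all arrays. It was at 11.69, 11.87 and 11.82 in AGS ESRRG OE samples and at 12.22, 12.33 and 12.37 in AGS controls. It was at 11.88, 11.97 and 11.95 in MKN45 ESRRG OE samples and at 12.29, 12.22 and 12.35 in MKN45 controls. Each ESRRG OE sample was below each control of its label, by -0.51 ± 0.09 log2 units on average in AGS and -0.36 ± 0.08 in MKN45. In MKN45 this separation was there only after normalization, since the deposited intensities ran from 4475 to 4997 in ESRRG OE samples and from 3931 to 6806 in controls, and with scaling to one median the MKN45 difference was -0.15.

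SPINK1 was at 11.68, 11.49 and 12.04 in AGS ESRRG OE samples and at 7.62, 7.58 and 7.52 in AGS controls. It was at 11.30, 11.48 and 11.29 in MKN45 ESRRG OE samples and at 7.89, 8.18 and 7.80 in MKN45 controls. All groups were detected on all arrays and no 2 of them overlapped. AGS ESRRG OE was highest, then MKN45 ESRRG OE, MKN45 control and AGS control. The difference was 4.16 ± 0.12 log2 units in AGS, or 17.9-fold, and 3.40 ± 0.10 in MKN45, or 10.6-fold. On the deposited intensity scale SPINK1 read 2734 to 4021 in AGS ESRRG OE samples and 163 to 176 in AGS controls, and 2979 to 3604 in MKN45 ESRRG OE samples and 167 to 356 in MKN45 controls. With background correction the differences became 5.08 in AGS and 4.04 in MKN45.

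SLPI was at 8.59, 8.82 and 8.27 in AGS ESRRG OE samples and at 8.04, 8.33 and 8.22 in AGS controls, and these groups overlapped. It was at 8.29, 8.51 and 8.31 in MKN45 ESRRG OE samples and at 8.66, 8.80 and 8.68 in MKN45 controls, which did not overlap. The difference was 0.36 ± 0.12 log2 units in AGS and -0.34 ± 0.09 in MKN45. The deposited intensities of SLPI in MKN45 ran from 364 to 443 in ESRRG OE samples and from 294 to 561 in controls, and after scaling to one median the MKN45 difference was -0.08.

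**Figure D2:**
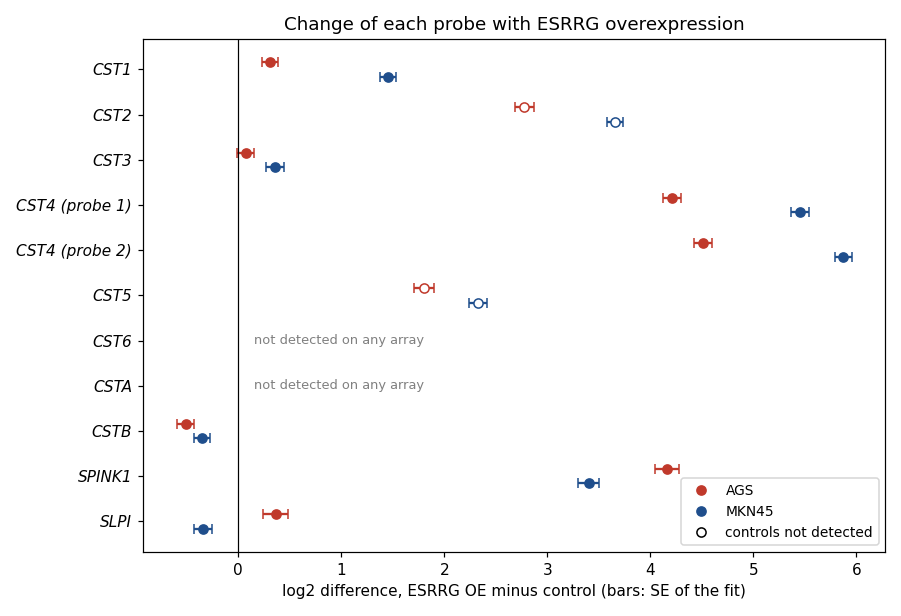
Log2 difference of ESRRG OE minus control (x axis) for each probe (y axis) in AGS (red) and MKN45 (blue), with the SE of the fit as bars. Open circles mark probes whose controls were not detected, for which only a lower bound of the fold can be given. The CST1, CST2, CST4 and CST5 points were farther right in MKN45, and those of SPINK1 farther right in AGS.

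The type 2 cystatins and SPINK1 differed in which label had the larger change. The AGS change minus the MKN45 change was -1.14 log2 units for CST1, -0.88 for CST2, -1.24 and -1.36 for the CST4 probes and -0.52 for CST5. It was 0.76 for SPINK1 and 0.71 for SLPI. CST4 was detected in all groups, but its MKN45 controls were near the background (mean 7.19 by the first probe, 7.06 by the second). For CST4, MKN45 minus AGS was 0.77 in ESRRG OE samples and -0.48 in controls by the first probe. By the second probe it was 0.68 in ESRRG OE samples and -0.68 in controls. For CST1 it was 0.01 in ESRRG OE samples, where both labels lay near the top of the range and a difference may not be measured, and -1.14 in controls. For CST2 and CST5 it was 1.05 and 0.61 in ESRRG OE samples, while the controls of both labels were undetected, so that a difference between them is not measured. These differences were not tested.

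Of the 11 probes, 9 passed the detection filter under each label, the exceptions being CST6 and CSTA. CST2 and CST5 passed through the ESRRG OE samples alone. In AGS 8 of the 9 were past the threshold of the fit across all probes (limma, adjusted p under 0.05), 7 higher and 1 lower in ESRRG OE, where 43.0% of all 19536 tested probes were. In MKN45 all 9 were, 7 higher and 2 lower, against 34.3% of 20143. The groups did not overlap for 8 probes in AGS, 7 of them higher in ESRRG OE, against 51.2% of all tested probes (24.2% higher and 27.0% lower). They did not overlap for 9 in MKN45, 7 of them higher, against 45.4% (22.8% higher and 22.6% lower). A log2 difference over 1 in the ESRRG OE direction was found in 5 probes in AGS and 6 in MKN45, against 2.32% and 1.32% of all tested probes. A difference over 2 was found in 4 and 5, against 0.317% and 0.213%. The median difference of the 9 probes was 1.80 in AGS and 2.33 in MKN45, and that of all tested probes was -0.02 in each. Because the genes were listed for these values, nothing is read from the counts. Of all probes past the threshold 47.1% were higher in ESRRG OE in AGS and 49.5% in MKN45. With the arrays scaled to one median these shares became 71.3% and 89.5%, and the median of all tested probes 0.08 and 0.12.

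CST1 to CST5 and their relatives lie side by side on chromosome 20. In the order of the GRCh38.p14 gene table, used for order only, CSTL1, CST11, CST8, CST9L and CST9 come first, then CST3, CST4, CST1, CST2 and CST5, then GGTLC1, SYNDIG1, CST7, APMAP and ACSS1. The 5 cystatin genes before CST3 had no probe detected on enough arrays to be tested. On the other side GGTLC1, a gamma-glutamyltransferase-like gene (difference 0.11 in AGS, adjusted p = 0.38, and 0.19 in MKN45, adjusted p = 0.12), and APMAP, an adipocyte plasma membrane protein (0.05, adjusted p = 0.67, and 0.21, adjusted p = 0.096), did not pass limma's test. CST7, the cystatin F of leukocytes, was tested in AGS alone, with a difference of 0.05 (adjusted p = 0.69). ACSS1, the mitochondrial acetyl-CoA synthetase, rose by 2.35 log2 units in AGS (limma, adjusted p = 7.74e-11) and by 2.41 in MKN45 (adjusted p = 1.48e-09). In this stretch, differences over 1 log2 unit under both labels were found at CST4, CST2, CST5 and ACSS1, and not at the tested genes between CST5 and ACSS1.

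**Figure D3:**
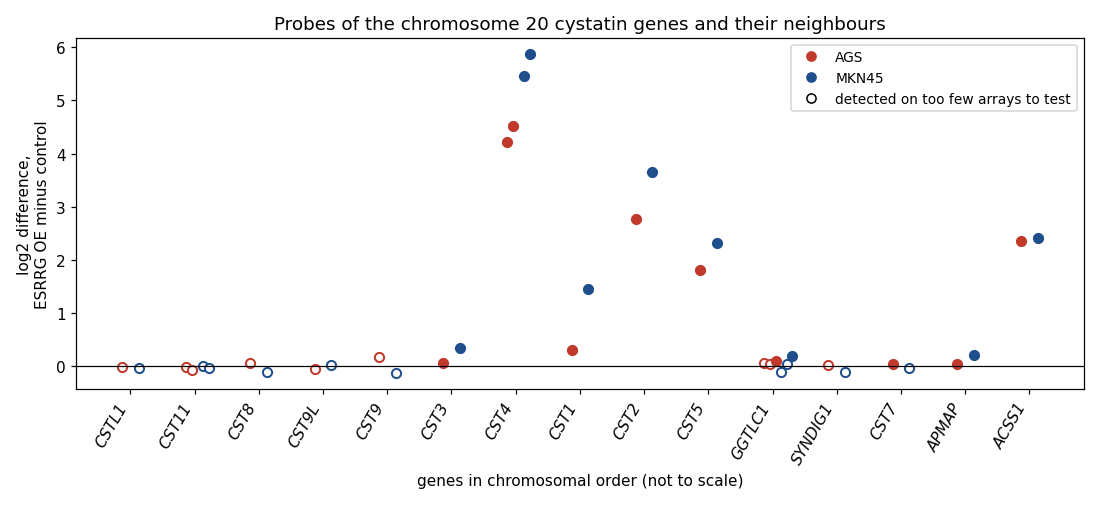
Log2 difference of ESRRG OE minus control (y axis) for each probe of the chromosome 20 cystatin genes and their neighbours, in gene order and not to scale (x axis), in AGS (red) and MKN45 (blue); open circles are probes detected on too few arrays to be tested. The probes of CST4 reached 4.51 in AGS and 5.87 in MKN45, while GGTLC1, CST7 and APMAP stayed at 0.21 or less.

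Lists of other inhibitors and of proteases, 4 in all, were read beside them, 1 probe per gene, with limma's p-values adjusted over all tested probes. Of 40 other small inhibitors (further cystatins, Kazal, Kunitz and WAP types), 39 were on the array. In AGS 9 could be tested, of which 3 rose, 1 fell and 5 did not pass, with a median difference of 0.17, beside 20.3% of all tested probes higher and 22.7% lower. In MKN45 7 could be tested, of which 3 rose, 2 fell and 2 did not pass, with a median of 0.22, beside 17.0% of all tested probes higher and 17.3% lower. Among the rises, TFPI in AGS and HRG in MKN45 passed the detection filter through the ESRRG OE samples alone. SPINK4, among the falls in MKN45, passed it through the controls alone. The filter favoured these directions. SPINT1, a Kunitz inhibitor of membrane-bound serine proteases, rose by 1.03 ± 0.08 log2 units in AGS (adjusted p = 1.78e-07) and by 0.74 ± 0.11 in MKN45 (adjusted p = 0.00021). PI3, the elastase inhibitor elafin, averaged 8.08 ± 0.14 in ESRRG OE and 8.97 ± 0.05 in control samples in AGS (SD, n = 3), and 7.78 ± 0.09 in ESRRG OE and 8.93 ± 0.07 in control samples in MKN45, with adjusted p = 1.63e-06 and 3.03e-07 by limma. SPINT2, a relative of SPINT1, rose by 0.35 in AGS (adjusted p = 0.0097), a call lost with background correction (adjusted p = 0.061), with a test on each probe's own spread, named in a legend of the study (adjusted p = 0.097) and without AGS ESRRG OE replicate 1 (adjusted p = 0.062). In MKN45 WFDC3, a WAP-domain protein, rose by 0.42 (adjusted p = 0.0027), which was lost with the legend's test (adjusted p = 0.056). SPINK4, a Kazal-type protein of intestinal goblet cells, fell to values not detected in MKN45 ESRRG OE samples, at least 1.25-fold below MKN45 controls. So the Kazal gene SPINK4 and SPINK1 lay on opposite sides of their controls in MKN45.

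Serpins, which trap serine proteases by a change of shape, numbered 27 in the list, 24 of them on the array. Of 8 tested in AGS 5 rose, 1 fell and 2 did not pass (median 0.40), beside 20.3% of all tested probes higher and 22.7% lower. Of 7 tested in MKN45 3 rose, 1 fell and 3 did not pass (median 0.15), beside 17.0% higher and 17.3% lower. Among the AGS rises, SERPINA3 and SERPING1 passed the detection filter through the ESRRG OE samples alone, which favoured that direction. SERPINB1, an inhibitor of neutrophil proteases, rose by 0.91 ± 0.08 in AGS (adjusted p = 4.54e-07) and by 0.46 ± 0.09 in MKN45 (adjusted p = 0.001). SERPINB5, or maspin, averaged 9.98 ± 0.09 in ESRRG OE and 10.94 ± 0.19 in control samples in AGS (SD, n = 3; limma, adjusted p = 2.27e-06). In MKN45 it averaged 9.96 ± 0.08 in ESRRG OE and 10.54 ± 0.13 in control samples (limma, adjusted p = 0.00021), a call lost with scaling to one median (adjusted p = 0.077). SERPINA3, alpha-1-antichymotrypsin, was not detected in AGS controls and was at least 1.43-fold higher in AGS ESRRG OE samples. SERPINI1, or neuroserpin, rose by 0.53 ± 0.09 in MKN45 (adjusted p = 0.00051). With background correction the differences of SERPINA3 and SERPINI1 became 1.79 and 1.20, and those of WFDC3 and SPINK4 in MKN45 1.12 and -1.36.

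Cysteine proteases, the targets of cystatins, numbered 12, all on the array, and 8 were tested under each label. In AGS 2 rose, 3 fell and 3 did not pass (median -0.08), beside 43.0% of all tested probes called. In MKN45 1 rose, 1 fell and 6 did not pass (median -0.07), beside 34.3%. CTSC, a dipeptidyl peptidase that activates leukocyte proteases, rose by 0.65 ± 0.09 in AGS (adjusted p = 5.41e-05) and by 0.47 ± 0.09 in MKN45 (adjusted p = 0.00093). CTSZ, a carboxypeptidase, rose by 1.02 ± 0.13 in AGS (adjusted p = 2.01e-05), or 1.67 with background correction. The falls were small and did not hold under each alternative. LGMN, the asparaginyl protease legumain that some cystatins also inhibit, differed by -0.34 in AGS (adjusted p = 0.004, but 0.15 with scaling to one median). CTSK, the collagen-degrading cathepsin K, differed by -0.26 in AGS (adjusted p = 0.022, but 0.30 with scaling to one median). Its call was also lost without AGS control replicate 1 (adjusted p = 0.063), AGS control replicate 3 (0.072) or AGS ESRRG OE replicate 3 (0.073). CTSB, the lysosomal cathepsin B, differed by -0.45 in MKN45 (adjusted p = 0.011, but 0.52 with scaling to one median, 0.16 with the legend's test and 0.054 without MKN45 ESRRG OE replicate 1).

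Serine proteases numbered 37, all on the array, of which 17 were tested under each label. In AGS 10 rose, 2 fell and 5 did not pass (median 0.50), and in MKN45 10 rose, 0 fell and 7 did not pass (median 0.27), beside 20.3% of all tested probes higher and 22.7% lower in AGS, and 17.0% higher and 17.3% lower in MKN45. In MKN45 1 serine protease was lower at an unadjusted p under 0.05 by limma, and 1 by the legend's test. Among the rises, PRSS1, KLK1, KLK11, KLK12 and KLK13 in AGS, and KLK11, KLK12 and KLK13 in MKN45, were undetected in the controls. They passed the detection filter through the ESRRG OE samples alone, which favoured a rise, so nothing is read from the counts. TMPRSS2, a membrane protease of glandular epithelia, averaged 10.41 ± 0.12 in ESRRG OE and 7.73 ± 0.14 in control samples in AGS (SD, n = 3), or 6.37-fold higher (limma, adjusted p = 1.99e-11). In MKN45 it averaged 9.96 ± 0.10 in ESRRG OE and 7.38 ± 0.07 in control samples, or 5.98-fold higher (limma, adjusted p = 8.69e-11). KLK12, a secreted kallikrein-related peptidase, was not detected in the controls. It was at least 2.16-fold higher in AGS ESRRG OE samples and at least 2.94-fold higher in MKN45 ESRRG OE samples. By the mean of its probes the KLK12 differences were 0.93 in AGS and 1.25 in MKN45. By the probes used, KLK11 and KLK13, of the same family and named after their values were seen, were likewise undetected in the controls of both labels. KLK11 was at least 1.72-fold higher in AGS ESRRG OE and at least 2.24-fold higher in MKN45 ESRRG OE samples, and KLK13 at least 2.12-fold and at least 1.71-fold higher. KLK11 depended on the probe. By the mean of its tested probes the AGS difference was 0.36, so the other tested probe was not higher in AGS ESRRG OE samples. In MKN45 the lowest KLK11 difference over all settings was 0.84. The other tested genes of the family differed among themselves. KLK6, detected in all groups, rose by 1.36 in AGS and 1.37 in MKN45. KLK1 rose by 0.50 in MKN45. It was undetected in AGS controls and at least 1.27-fold higher in AGS ESRRG OE samples. KLK14 rose by 0.35 in AGS and did not pass in MKN45 (0.08). KLK10 passed under neither label (0.05 in AGS and -0.13 in MKN45). The trypsin genes PRSS1, PRSS2 and PRSS3 did not move together. PRSS1, or trypsin 1, named after its value was seen, was not detected in AGS controls and was at least 1.21-fold higher in AGS ESRRG OE samples. It was detected on too few MKN45 arrays to be tested. PRSS3, or mesotrypsin, differed by -0.52 ± 0.10 in AGS (adjusted p = 0.00076) and by -0.01 in MKN45 (adjusted p = 0.93). PRSS2 differed by -0.09 in MKN45 (adjusted p = 0.59) and by -0.33 in AGS (adjusted p = 0.042), the AGS call being lost under 4 other settings (adjusted p between 0.091 and 0.42) and without AGS control replicate 1 (0.084), AGS control replicate 2 (0.16) or AGS ESRRG OE replicate 3 (0.21). The trypsin genes are near copies of each other, and their probes may not tell them apart. With background correction the TMPRSS2 differences became 3.40 in AGS and 3.62 in MKN45, those of KLK12 3.02 and 3.59, those of KLK11 2.28 and 2.91 and those of KLK13 2.90 and 2.06, and the PRSS1 difference in AGS 1.42.

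**Figure D4:**
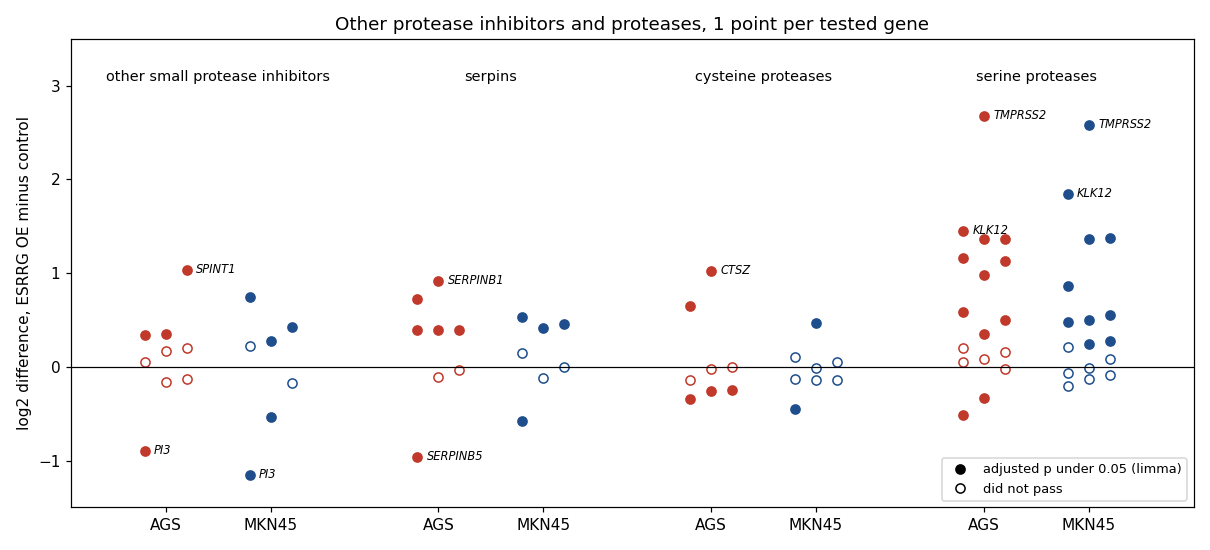
Log2 difference of ESRRG OE minus control (y axis) for each tested gene of 4 lists in AGS (red) and MKN45 (blue); filled circles passed limma's test at an adjusted p under 0.05. TMPRSS2, at 2.67 in AGS and 2.58 in MKN45, was the highest point of each label, and the lowest was SERPINB5 at -0.96 in AGS and PI3 at -1.15 in MKN45.

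Where the change itself was compared between labels (interaction of line and vector, limma, all 12 arrays), 9 of 44 tested list genes passed, 7 with the more positive change in AGS and 2 in MKN45, beside 8.46% of all 21080 probes (4.34% more positive in AGS and 4.12% in MKN45). The AGS change minus the MKN45 change was 0.96 ± 0.23 log2 units for CTSZ (adjusted p = 0.013), 0.89 ± 0.14 for HPN, the membrane protease hepsin (adjusted p = 0.00055), and 0.59 ± 0.12 for SERPINA3 (adjusted p = 0.0059). It was -0.50 ± 0.14 for PRSS3 (adjusted p = 0.027) and -0.39 ± 0.11 for KLK12 (adjusted p = 0.028), whose controls were undetected under both labels. SERPINA3 was undetected in AGS controls and detected on too few MKN45 arrays to be tested there, so its difference rests partly on background values.

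The genes whose 12 values, centred on their own mean, lay closest to those of each inhibitor were found by the root mean square (RMS) of the log2 differences, among probes detected on at least 3 arrays of a label. This is a description of likeness with no test. Nearest to the first CST4 probe were FGA, the fibrinogen alpha chain (RMS 0.41), TFF1, the trefoil peptide of gastric surface mucous cells (0.45), and FGB, the fibrinogen beta chain (0.49). Nearest to the second were the same genes, TFF1 (0.43), FGA (0.49) and FGB (0.57). Another FGB probe was also nearest to SPINK1 (0.19), followed by CDC42EP5, an effector of the small GTPase CDC42 (0.23), and SULT2A1, a steroid sulfotransferase (0.26). CST2 was closest to ECM1, an extracellular matrix protein (0.18), LINC02897, a noncoding RNA (0.25), and ALOX5AP, which serves leukotriene synthesis (0.38). CST5 was closest to BCL6, a transcriptional repressor (0.14), DDIT3, a stress-induced transcription factor (0.21), and KLK12 (0.23). CST1, with its low MKN45 controls, was closest to SLCO2B1, an organic anion transporter (0.19), S100A16, a calcium-binding protein (0.19), and CKMT1A, a mitochondrial creatine kinase (0.21).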

How the data were processed

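RNA (500 ng) of 12 samples was hybridized to Illumina BeadChip arrays. GenomeStudio stands in the submitters' processing notes without a version. For each probe the authors deposited an intensity without background correction, the detection p-value on that array, and a log2 value quantile normalized with limma. Normalizing the deposited intensities again gave these log2 values within 5.0e-04, so they were used. Array medians of intensity lay between 98.4 and 136.9, and 18795 to 20397 probes were detected per array. The number of arrays limits the precision. Probes were named by the platform annotation: 30113 had 1 gene symbol, 8 several and 17202 none. Sequences and gene order came from RefSeq tables. The genes and lists were chosen with earlier results of these data known.

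A probe entered the test where at least 3 of the 6 arrays of its label detected it (p under 0.05). ESRRG OE and control samples were compared per label with lmFit and eBayes (R 4.3.3, limma 3.58.1), adjusted by Benjamini-Hochberg over all tested probes, threshold 0.05, and the interaction over all 12 arrays. A list gene was represented by its tested probe with the highest mean. Named were the 10 genes, the 2 largest rises and 2 falls past the test per list and label, the 3 largest interactions past the test per direction among list genes, and the 3 nearest genes of each probe whose group means spanned at least 1 log2 unit. The steps were tested on simulated data. Alternatives were quantile normalization done again or within each line, scaling to one median, background correction (neqc, offset 16), no detection filter or a limit of 0.01, 1 fit over all arrays, a block for the replicate number, the t-test with each probe's own spread that a legend of the study names, the mean of a gene's probes, the 95th percentile for the top of the range, and leaving out each array.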

Additional observations from a re-analysis of the deposited data

Results flagged for a closer look

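Among the protease and inhibitor genes named above, 8 had a change that differed between the labels by the interaction of line and vector (limma, adjusted over 21080 probes). The AGS change minus the MKN45 change was 0.96 for CTSZ (1.02 in AGS and 0.06 in MKN45), 0.89 for HPN (1.13 in AGS and 0.24 in MKN45) and 0.59 for SERPINA3 (0.72 in AGS and 0.13 in MKN45). It was 0.45 for SERPINB1 (adjusted p = 0.018), 0.40 for SPINK4 (adjusted p = 0.030) and 0.50 for KLK13 (adjusted p = 0.0091, its controls undetected under both labels), and -0.50 for PRSS3 and -0.39 for KLK12. SERPINA3 was undetected in AGS controls and detected on too few MKN45 arrays to be tested there. SPINK4 was detected on too few AGS arrays to be tested there and was undetected in MKN45 ESRRG OE samples. The differences of SERPINA3 and SPINK4 rest partly on background values. The CTSZ call was lost with scaling to one median (adjusted p = 0.082), background correction (0.054) and the legend's test (0.14), and the PRSS3 call with the same settings (0.11, 0.10 and 0.11). With scaling to one median the calls of SPINK4 (0.13), SERPINB1 (0.45) and KLK13 (0.16) were lost too, that of SERPINB1 also with background correction (0.080) and that of KLK13 with quantile normalization within each line (0.058). Leaving out 1 array at a time, PRSS3 lost the call without AGS control replicate 2 (adjusted p = 0.0655), AGS ESRRG OE replicate 3 (0.058), MKN45 control replicate 1 (0.068), MKN45 ESRRG OE replicate 2 (0.051) or MKN45 ESRRG OE replicate 3 (0.056). KLK12 lost it without AGS control replicate 3 (0.058), AGS ESRRG OE replicate 1 (0.073), MKN45 control replicate 3 (0.060), MKN45 ESRRG OE replicate 2 (0.074) or MKN45 ESRRG OE replicate 3 (0.058). SPINK4 lost it without AGS control replicate 1 (0.079), AGS ESRRG OE replicate 2 (0.083), MKN45 control replicate 3 (0.073), MKN45 ESRRG OE replicate 1 (0.070) or MKN45 ESRRG OE replicate 2 (0.069), and SERPINB1 without AGS ESRRG OE replicate 2 (0.059) or MKN45 ESRRG OE replicate 3 (0.051).

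SLPI is listed because each of the 3 AGS ESRRG OE samples was above the mean of the AGS controls and each of the 3 MKN45 ESRRG OE samples below the mean of the MKN45 controls, the AGS change minus the MKN45 change being 0.71 log2 units. This difference was not tested. The AGS groups overlapped, as did the deposited MKN45 intensities, and with scaling to one median the MKN45 difference was -0.08.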

How the results depend on the processing

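The number of inhibitor probes with a log2 change over 1, 5 in AGS and 6 in MKN45, was the same in all alternatives run, leaving out each array included. The smallest of these changes were 1.80 in AGS and 1.45 in MKN45, so this count had little room to move. Over the settings other than leaving out an array, 26 values of the inhibitor probes moved by at least the larger SD of their groups. The other 84 did not. With quantile normalization done again or within each line, all arrays in 1 fit, no detection filter or a limit of 0.01, no count of called probes moved by over 1.5 times. The legend's test called 4066 probes in MKN45 (6916 by limma) and 849 for the interaction (1784 by limma). At its unadjusted p under 0.001 it called 2038 in AGS (8398 by limma), 1251 in MKN45 and 576 for the interaction. The interaction count was 501 with scaling to one median, when 36.5% of the calls were more positive in AGS instead of 51.3%, and 969 with background correction. Leaving out each array in turn gave 6979 to 7927 called probes in AGS, 4886 to 6796 in MKN45 and 1068 to 1931 for the interaction (1087 without AGS ESRRG OE replicate 1 and 1068 without AGS ESRRG OE replicate 2), and 24 to 26 called list genes in AGS (27 with all arrays) and 18 to 21 in MKN45 (21 with all). With the 95th percentile in place of the 99th, 7 inhibitor probes in place of 3 were near the top of the range, and with a detection limit of 0.01, 5 in place of 4 were undetected in the controls of a label. Same-numbered samples had correlations of their deviations between -0.102 and 0.233, and 2 of 6 best matched their own number. With 3 samples per group this cannot tell whether the numbers pair the samples. With the replicate block 8463 probes were called in AGS, 7244 in MKN45 and 1866 for the interaction. A slide block was not run, since no slide is given in the files. Of the named list genes, 23 values in 362 lost their call over the other settings and 25 in 276 on leaving out an array, with 0 changes of sign. Among the inhibitor probes, CST3 in AGS turned to -0.09 with scaling to one median, and the undetected CST6 and CSTA changed sign on leaving out an array. Probes near the background and near the top of the range limit how far folds can be measured.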
